A study of Rattus norvegicus with 9 samples.

Results

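Retinas of rats with oxygen-induced retinopathy (OIR) were compared with retinas of sham rats of the same age, postnatal day 14 (P14), by sequencing their small RNAs. The comparison took 6 of the 9 libraries of the study: 3 sham P14 libraries, which carry the codes 25, 27 and 51, and 3 OIR P14 libraries, which carry the codes 11, 12 and 38. All animals were wild type Sprague Dawley rats. The sham animals are labelled as controls and the OIR animals by their disease state. Neither the oxygen regimen nor the number of animals behind a library is stated in the sources used here. All 465 mature miRNAs of the deposited table entered, and the libraries were chosen by their group, with no measured value used. The other 3 libraries, from OIR rats at postnatal day 29 (P29, codes 20, 21 and 47), are described only by their levels beside the P14 levels. None of the 9 libraries came from sham rats at P29.

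A miRNA is cut from a hairpin precursor whose 5' and 3' arms can each give a mature strand of its own. The mature strand guides an Argonaute protein to messenger RNAs that pair with its seed, bases 2 to 8, and lowers their output, so that miRNAs with the same seed share many targets. In OIR, altered oxygen in the first days of life stops or reverses the growth of retinal vessels, and the hypoxic retina that follows can drive abnormal new vessels. A whole retina is mostly photoreceptors and other neurons, with vessels, glia and the blood inside the vessels as small parts of its RNA.

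The 7 miRNAs that passed the test below, and 4 that serve as reference points for them, are shown by sequence because their seeds and loci say which could act alike and which are made together. RefSeq (build GRCr8) held a mature sequence for 423 of the 465 names and for 6 of the 7 that passed. Sequences run 5' to 3' with the seed in capitals.
miR-126a-3p: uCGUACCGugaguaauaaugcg
miR-126a-5p: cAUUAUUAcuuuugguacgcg
miR-143-3p: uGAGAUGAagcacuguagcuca
miR-145-3p: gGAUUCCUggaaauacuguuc
miR-145-5p: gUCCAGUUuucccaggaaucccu
miR-451-5p: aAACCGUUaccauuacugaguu
miR-1224: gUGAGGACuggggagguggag
miR-144-3p: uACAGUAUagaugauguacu
miR-1247-5p: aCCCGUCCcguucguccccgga
miR-182: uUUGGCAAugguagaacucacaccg

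The seventh miRNA that passed was miR-150-5p. No seed among the 6 called miRNAs with a sequence was shared with another of them. Their loci, in GRCr8, were chr3:29813219-29813240 and chr3:29813182-29813202 on the plus strand for the miR-126a arms, within the span of Egfl7, a gene of endothelial cells. miR-143-3p lay at chr18:57371373-57371394 and miR-145-3p at chr18:57369997-57370017, both on the minus strand within the span of the long noncoding RNA Carmn, a transcript of smooth muscle cells. miR-451-5p lay at chr10:63459585-63459606 on the plus strand beside miR-144, and miR-1224 at chr11:93811355-93811375 on the minus strand within the span of Vwa5b2. The Mir143 and Mir145 hairpins are printed with both annotated arms in capitals, because 3 of their 4 arms were abundant enough to test and all 3 had negative folds.
Mir143 hairpin: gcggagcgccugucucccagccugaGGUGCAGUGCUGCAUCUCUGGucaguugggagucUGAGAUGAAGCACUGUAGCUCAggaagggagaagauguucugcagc
Mir145 hairpin: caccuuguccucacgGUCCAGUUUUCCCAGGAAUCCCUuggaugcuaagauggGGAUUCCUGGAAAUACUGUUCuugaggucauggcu

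Total counts ran from 11808893 to 12568341 in sham P14 and from 12694068 to 15260603 in OIR P14, and each library had counts for 463 to 465 of the 465 names. Levels below are counts scaled to a common library size (CPM) after one scaling of all 9 libraries by the trimmed mean of M values (TMM), so each level is relative to the other miRNAs of its library. A count of 0 would allow a level of up to 0.197 to 0.254 CPM before that scaling, taken as 3 counts of the total and covering counting error only. Libraries of one group differed from each other by more than sampling of reads gives, with a chi-square over its degrees of freedom of 154 to 229 in sham P14 and 93.4 to 140 in OIR P14. The labels speak of biological triplicates without naming animals or pools, so every p measures the spread between these libraries. Folds are OIR P14 over sham P14 on the log2 scale, from edgeR's quasi-likelihood test on the 6 libraries, and a miRNA was called at a Benjamini-Hochberg adjusted p under 0.05.

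The difference between OIR and sham retina at P14 was narrow: 7 of 415 miRNAs tested were lower (1.69% of those tested), and none was higher (0%). Without adjustment, 26 were lower (6.27%) and 12 higher (2.89%) at p under 0.05. By DESeq2, with 464 miRNAs tested, there were 11 lower and 1 higher, and by limma-voom, with 415 tested, 7 lower and 0 higher. With sham library 27 or sham library 51 left out, edgeR called 1 miRNA, miR-150-5p. The 3 OIR values all lay under the 3 sham values for 47 miRNAs (11.3%) and all lay above them for 16 (3.86%). The median log2 fold over all 415 was -0.03, with the 10th percentile at -0.33 and the 90th at 0.26. Only 10 miRNAs had a fold beyond 2 in either direction (1 on the log2 scale), and 6 of these were called.

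**Figure D1:**
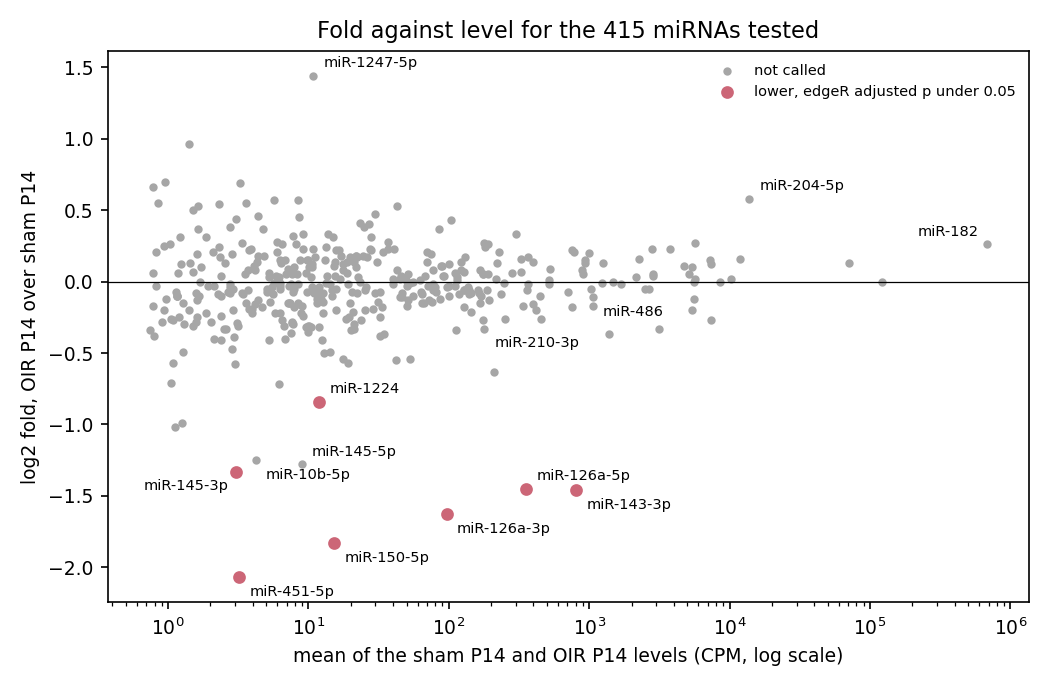
Log2 fold of OIR P14 over sham P14 (vertical axis) against the mean level of both groups in CPM (horizontal, log scale) for the 415 miRNAs tested, 1 point each. The 7 called miRNAs, in red, lie between -2.07 and -0.84, while miR-182 at the right edge stands at 0.26.

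Of the 7 called miRNAs, 4 are known from the vessel wall: both arms of miR-126a, miR-143-3p and miR-145-3p. miR-126a, made in endothelial cells, where in mouse and zebrafish it supports signalling by vascular endothelial growth factor, was low on both of its arms. miR-126a-3p stood at 146.4, 150.1 and 143 CPM in sham libraries 25, 27 and 51 and at 33.6, 42.8 and 63.0 CPM in OIR libraries 11, 12 and 38. miR-126a-5p stood at 496, 578 and 487 CPM in the sham libraries and at 131, 188 and 241 CPM in the OIR libraries, in the same order. The groups did not overlap on either arm, and the sham values were close together while the OIR values spread from library 11 up to library 38. The log2 fold was -1.63 (95% interval -2.10 to -1.16, adjusted p = 0.00651 by edgeR) for the 3p arm and -1.45 (-1.90 to -1.0, adjusted p = 0.00748) for the 5p arm. The ratio of 5p to 3p counts was 3.39 to 3.85 in sham and 3.84 to 4.38 in OIR libraries.

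miR-143 and miR-145, which are made from one transcript in smooth muscle cells and pericytes and hold smooth muscle in its contractile state, were low as well. miR-143-3p stood at 1149.8, 1272 and 1144 CPM in the sham libraries and at 293, 385 and 595 CPM in the OIR libraries, with a log2 fold of -1.46 (-1.97 to -0.95, adjusted p = 0.0112 by edgeR). miR-145-3p stood at 4.72, 5.13 and 3.41 CPM in sham and at 1.31, 1.64 and 2.19 CPM in OIR, with a log2 fold of -1.33 (-1.90 to -0.77, adjusted p = 0.0291). Both kept the order of the miR-126a arms, with OIR library 11 lowest and library 38 highest.

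The main arm, miR-145-5p, was not called by edgeR. It stood at 10.3, 16.1 and 11.7 CPM in sham and at 3.17, 4.07 and 8.20 CPM in OIR, a log2 fold of -1.28 (-2.04 to -0.52, adjusted p = 0.133 by edgeR and 0.00596 by DESeq2). The groups did not overlap, but library 38 stood well above the other OIR libraries. miR-143-5p, the scarce arm, stood at 0.325 to 0.962 CPM in sham and 0.156 to 0.313 CPM in OIR, near the limit that a count of 0 allows, and was not tested.

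Within each library the 2 kinds of vessel-wall miRNA kept a similar ratio although their levels differed between libraries. The count of miR-143-3p over that of miR-126a-3p was 7.85, 8.47 and 8.0 in the sham libraries and 8.73, 9.01 and 9.45 in the OIR libraries. At P29 the same ratio was 14.9, 12.7 and 12.2. The ratio needs no scaling between libraries; its OIR P14 values lay just above the sham values. In whole retina, fewer cells of a type and less of the miRNA per cell cannot be told apart.

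Among miRNAs of blood cells, miR-150-5p and miR-451-5p were called lower. miR-150-5p, which is abundant in mature lymphocytes and in mouse represses Myb, stood at 25.4, 26.4 and 19.6 CPM in the sham libraries and at 5.18, 6.11 and 8.36 CPM in the OIR libraries. The groups were well apart, and the log2 fold was -1.83 (-2.28 to -1.38, adjusted p = 0.00357 by edgeR), the smallest p of the comparison. miR-451-5p, a red cell miRNA that is cut by Argonaute 2 without Dicer, stood at 3.32, 6.49 and 5.85 CPM in sham and at 1.08, 1.49 and 1.09 CPM in OIR. It had the largest called fold, -2.07 on the log2 scale, with the widest interval of the 7 (-2.77 to -1.37, adjusted p = 0.0105), from 14 to 19 counts in each OIR library.

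miR-144, which is made beside miR-451 in red cell precursors, was too scarce to test on either arm. miR-144-3p had 5, 31 and 27 counts in sham libraries 25, 27 and 51 and 6, 5 and 9 counts in OIR libraries 11, 12 and 38. Sham library 25 was thus as low as the OIR libraries for miR-144-3p, and it was also the lowest sham library for miR-451-5p. The counts of miR-144-5p, in the same order, were 6, 15 and 16 in sham and 3, 2 and 6 in OIR. miR-486, which is abundant in red cells but also made in muscle and other tissues, stood at 1197, 1088 and 1038 CPM in sham and at 1013, 986 and 1021 CPM in OIR. Its log2 fold was -0.11 (-0.30 to 0.08, adjusted p = 0.678), and its interval ended far short of that of miR-451-5p. The ratio of miR-451-5p to miR-486 counts was 0.00278 to 0.00597 in the sham libraries and 0.00107 to 0.00151 in the OIR libraries.

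No other leukocyte miRNA was called. Of the 10 tested in the leukocyte and microglia list, miR-150-5p included, 5 had negative and 5 positive folds. miR-142-5p, found across blood-forming lineages, stood at 23.8, 28.4 and 23.3 CPM in sham and at 28.8, 43.3 and 30.9 CPM in OIR, a log2 fold of 0.47 (0.09 to 0.84, adjusted p = 0.363). miR-146a-5p, induced by inflammatory signalling, had a log2 fold of -0.34 (-0.81 to 0.12, adjusted p = 0.588). miR-155-5p, of activated immune cells, had one of -0.24 (-1.01 to 0.54). Myeloid miR-223-3p stood at 0.175 to 0.377 CPM in sham and at 0.309, 2.27 and 0.937 CPM in OIR, and was too scarce to test. The 5 myeloid marker names summed to 46.6 to 62.0 CPM in sham and 46.5 to 70.8 CPM in OIR libraries.

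miR-1224 in mammals comes from a short intron spliced out as a hairpin without Drosha. It was the only called miRNA outside the lists of vessel and blood miRNAs, which were chosen with earlier results of these data known. It stood at 14.7, 13.9 and 17.4 CPM in sham and at 8.58, 8.38 and 8.36 CPM in OIR, with a log2 fold of -0.84 (-1.17 to -0.50, adjusted p = 0.0241 by edgeR). Its 3 OIR values were almost the same, so it did not share the spread of the vessel miRNAs over the OIR libraries. OIR library 11 was lowest for 6 of the 7 called miRNAs and library 38 highest for 5.

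**Figure D2:**
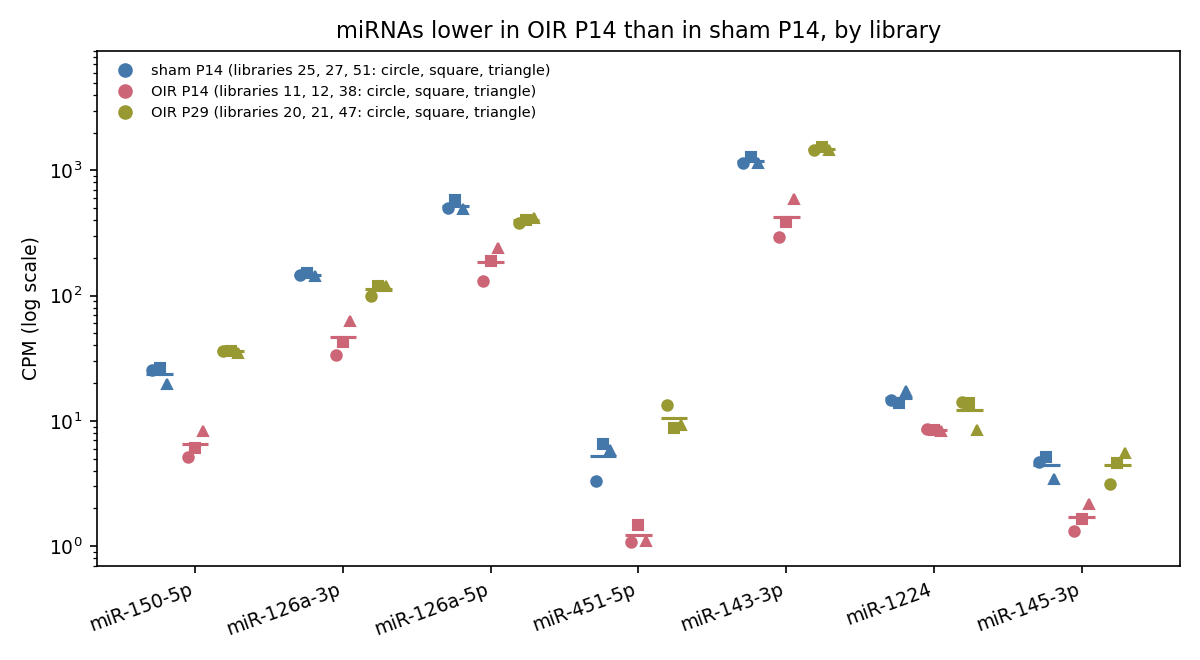
Level in CPM (vertical, log scale) of the 7 called miRNAs in each library, with blue for sham P14, red for OIR P14 and olive for OIR P29, and a bar at each group's mean. For each miRNA the 3 red points lie under the 3 blue points, and for all but miR-1224 the olive points lie above the red ones.

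At P29 the mean levels of the same 7 miRNAs were 77% to 202% of their sham P14 means. In OIR P29 libraries 20, 21 and 47, miR-150-5p was at 36.3, 36.2 and 34.9 CPM and miR-451-5p at 13.5, 8.81 and 9.28 CPM, means that were 151% and 202% of the sham P14 means. miR-143-3p was at 1462, 1527 and 1465 CPM, 125% of the sham P14 mean, and miR-145-3p at 100.1% of it. miR-126a-3p was at 98.4 to 120 CPM and miR-126a-5p at 382 to 415 CPM, each 77% of the sham P14 mean. Age and the course of the retinopathy cannot be told apart here. No test was made, since the OIR P14 libraries are shared by the comparisons with sham P14 and with OIR P29.

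Below the threshold, the 10 miRNAs with the next smallest p whose OIR values all lay under the sham values were miR-1298, miR-322-5p, miR-134-5p, miR-466c-5p, miR-145-5p, miR-375-3p, miR-409a-3p, miR-210-3p, miR-760-3p and miR-450a-5p. Their log2 folds ran from -1.28 to -0.33 and their adjusted p from 0.0923 to 0.293. miR-1298, within the span of the serotonin receptor gene Htr2c, stood at 25.98, 23.5 and 19.8 CPM in sham and at 15.2, 16.1 and 14.4 CPM in OIR (log2 fold -0.57, interval -0.87 to -0.28). miR-134-5p, which in rat neurons restrains the growth of dendritic spines, stood at 46.4, 49.3 and 55.7 CPM in sham and at 30.9, 37.4 and 33.5 CPM in OIR (-0.55, -0.84 to -0.26). Both miR-1298 (adjusted p = 0.0435) and miR-134-5p (0.0156) were called by DESeq2.

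miR-375-3p, known from pancreatic islets and other secretory cells, stood at 329.9, 226 and 209 CPM in sham and at 137, 185 and 163 CPM in OIR, a log2 fold of -0.63 (-1.02 to -0.24, adjusted p = 0.163 by edgeR and 0.0312 by DESeq2). miR-322-5p, the rodent counterpart of human miR-424 and a brake on the cell cycle, stood at 20.2, 22.7 and 20.1 CPM in sham and at 13.0, 14.6 and 15 CPM in OIR (-0.54, -0.82 to -0.25). miR-210-3p, the best known target of hypoxia-inducible factor among miRNAs, stood at 193, 195 and 209 CPM in sham and at 152, 156 and 158 CPM in OIR. Its log2 fold was -0.33 (-0.55 to -0.11, adjusted p = 0.208), so the interval held no rise. Its scarce arm miR-210-5p spread from 4.62 to 16.0 CPM over the OIR libraries.

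No miRNA was called higher by edgeR. The 10 with the smallest p whose OIR values all lay above the sham values were miR-1247-5p, miR-6329, miR-484, miR-142-5p, miR-1249, miR-125a-5p, miR-151-5p, miR-20b-3p, miR-34b-5p and miR-18a-3p. miR-1247-5p stood apart from the other 9, at 5.77, 3.85 and 8.04 CPM in sham and at 22.8, 14.6 and 9.61 CPM in OIR. Its log2 fold was 1.44 (0.62 to 2.25), with an adjusted p of 0.124 by edgeR and 0.000866 by DESeq2, and its OIR values ran in the opposite order to those of the vessel miRNAs, with library 11 highest. At P29 it stood at 17.3 and 16.1 CPM in libraries 20 and 21 and at 118 CPM in library 47.

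The other 9 had log2 folds of 0.22 to 0.70 and adjusted p of 0.208 to 0.554. miR-484 stood at 22.3, 22.4 and 25.3 CPM in sham and at 32.2, 31.6 and 26.8 CPM in OIR (log2 fold 0.40, 0.10 to 0.70). miR-125a-5p, of the lin-4 family, was the most abundant of them, with 2487 to 2682 CPM in sham and 2779 to 3166 CPM in OIR (0.23, 0.02 to 0.44).

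**Figure D3:**
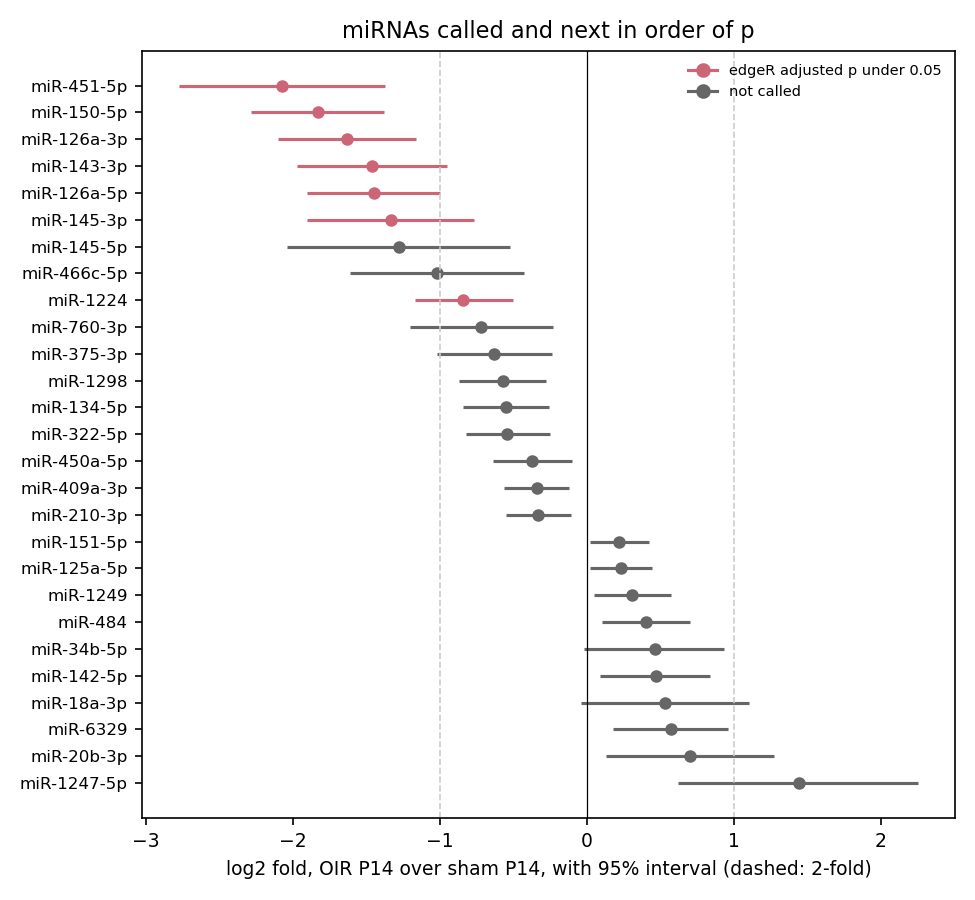
Log2 fold of OIR P14 over sham P14 with its 95% interval for the 7 called miRNAs (red) and the 10 next in each direction (grey). Dashed lines mark a 2-fold change. Of the called intervals, only those of miR-150-5p, miR-126a-3p, miR-126a-5p and miR-451-5p lie at or beyond the 2-fold line over their whole length, and miR-1247-5p has the longest of the grey intervals.

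For most miRNAs the libraries were able to bound the change. The 95% interval lay within 2-fold in either direction for 367 of the 415 and within 1.5-fold for 234. It reached 2-fold for 48, of which 7 were the called miRNAs and 41 were not called. The bound depended on depth: the median half-width of the interval was 0.62 on the log2 scale for the 60 whose mean count was under 30 and 0.26 for the 116 whose mean count was over 1000. miR-21-5p, a miRNA of injury and inflammation, was bounded closely, at 1205 to 1283 CPM in sham and 1171 to 1281 CPM in OIR (-0.01, -0.20 to 0.17). So was miR-132-3p, of active neurons, at 13.0 to 16.4 and 12.7 to 14.8 CPM (-0.02, -0.34 to 0.30).

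miR-10b-5p, singled out after its values were seen, stood at 6.04, 5.13 and 6.74 CPM in sham and at 0.850, 0.548 and 5.94 CPM in OIR libraries 11, 12 and 38. Libraries 11 and 12 were far under the sham values and library 38 was among them, giving a log2 fold of -1.25 with an interval of -2.76 to 0.25 (adjusted p = 0.565 by edgeR). At P29 it ran from 1.45 to 16.6 CPM. miR-184, abundant in cornea and lens, was as uneven, at 18.8, 27.6 and 141 CPM in sham and 55.7, 50.4 and 22.9 CPM in OIR.

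None of the 8 most abundant miRNAs was called. miR-182, of the photoreceptor cluster miR-183/96/182, took 64.3%, 63.1% and 62.5% of the counts in the sham libraries and 68.1%, 66.1% and 65.1% in the OIR libraries. The shares did not overlap, with a difference of 3.15 percentage points, and an exact two-sided permutation test gave p = 0.1, the smallest it can give with 3 against 3. In the fit, its log2 fold was 0.26 (0.00 to 0.52, adjusted p = 0.535). The number of miRNAs that made up 90% of the counts was 11, 12 and 12 in sham and 9, 9 and 11 in OIR libraries (exact permutation p = 0.2). miR-181a-5p, next in abundance, had a log2 fold of 0.00 (-0.31 to 0.32), and miR-183-5p one of 0.13 (-0.10 to 0.36).

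miR-204-5p, the main miRNA of the pigment epithelium, stood at 6095, 13769 and 13647 CPM in sham and at 18461, 18287 and 12823 CPM in OIR. Its groups overlapped, with sham library 25 at well under the other sham libraries, and its log2 fold was 0.58 (-0.09 to 1.25, adjusted p = 0.565). The 4 names of miR-204 and miR-211, taken as markers of pigment epithelium and ciliary body, summed to 12374 to 19724 CPM in sham and 18402 to 24006 CPM in OIR. Their part in the folds of other miRNAs was not tested. In the P14 libraries muscle markers were scarce, with miR-1 and miR-206 not listed and miR-133a-3p at 4.95 to 9.67 CPM, and the 5 epithelial names of the miR-200 family together reached 7.65 CPM at most, with miR-200c-3p at 0 counts in OIR library 12. Neuronal miR-124 summed to 4465 to 5983 CPM in sham and 4547 to 6423 CPM in OIR. Photoreceptor markers summed to 675220 to 736964 CPM in sham and 720313 to 886757 CPM in OIR.

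Lists of miRNAs tied to cell types or processes, chosen with earlier results of these data known, were then counted. Of the 17 tested members of the endothelial and angiogenesis list, 2 were lower, against 1.69% of all miRNAs tested, and the list's median log2 fold was -0.15, against -0.03. The 2 were the arms of miR-126a. In this list miR-221-3p and miR-222-3p, which restrain angiogenic signalling in human endothelial cells, had log2 folds of -0.21 and -0.25 and were not called. Of 11 mural cell and fibroblast members, 2 were lower, miR-143-3p and miR-145-3p, and the median was -0.30, with miR-195-5p at -0.49 (adjusted p = 0.392). Of the 10 leukocyte and microglia members 1 was lower, miR-150-5p, with a median of 0.00, and of 2 erythroid members 1 was lower, miR-451-5p. In the other lists a call was made only for members already named. Lists took every arm of a listed hairpin, whichever arm had been reported. For 11 hairpins reported as raised in ischemic mouse retina, miR-451-5p was lower among the 16 names tested. For those reported as lowered there, miR-150-5p was lower among the 3 names tested.

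None of the 29 neuronal members was called (median -0.06), nor any of 7 hypoxia members (median -0.02), nor any of 5 of the miR-29 family (-0.10). Folds were negative for 22 of the 29, 4 of the 7 and 5 of the 5, against 227 of all 415. At unadjusted p under 0.05 there was 1 in the neuronal list, miR-7b (log2 fold -0.99, interval -1.89 to -0.08), 1 in the hypoxia list, miR-210-3p, and none in the miR-29 family. Over all 415 miRNAs tested, 6.27% were lower and 2.89% higher at that threshold. DESeq2 and limma-voom called none in these 3 lists either. Nor did any of the 3 tools call a member of the lists in the rest of this paragraph. The sensory cluster had 5 of 5 members positive (median 0.23), but with scaling by library totals alone 2 of the 5 turned negative and the median was 0.05. The miR-17 to miR-92a group had 18 of 22 members positive (median 0.19), but by library totals 11 of the 22 were negative and the median was 0.00. The pigment epithelium, lens and cornea list had a median of 0.44 over 9 members, with 2 negative, but 4 negative and a median of 0.23 by library totals. Its smallest p was that of miR-203a-3p, an epithelial miRNA (log2 fold 0.57, 0.07 to 1.08, adjusted p = 0.407). The let-7 and miR-98 list had a median of -0.05 over 20 members of both arms, and the muscle list one of -0.10 over 2. At unadjusted p under 0.05 there was 1 higher member in each of the sensory, miR-17 to miR-92a and pigment epithelium lists. In the let-7 list there was 1 lower member and in the muscle list none, beside the same shares over all miRNAs tested. Scaling by library totals moved the median of all 415 miRNAs from -0.03 to -0.21, with 338 of them negative.

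**Figure D4:**
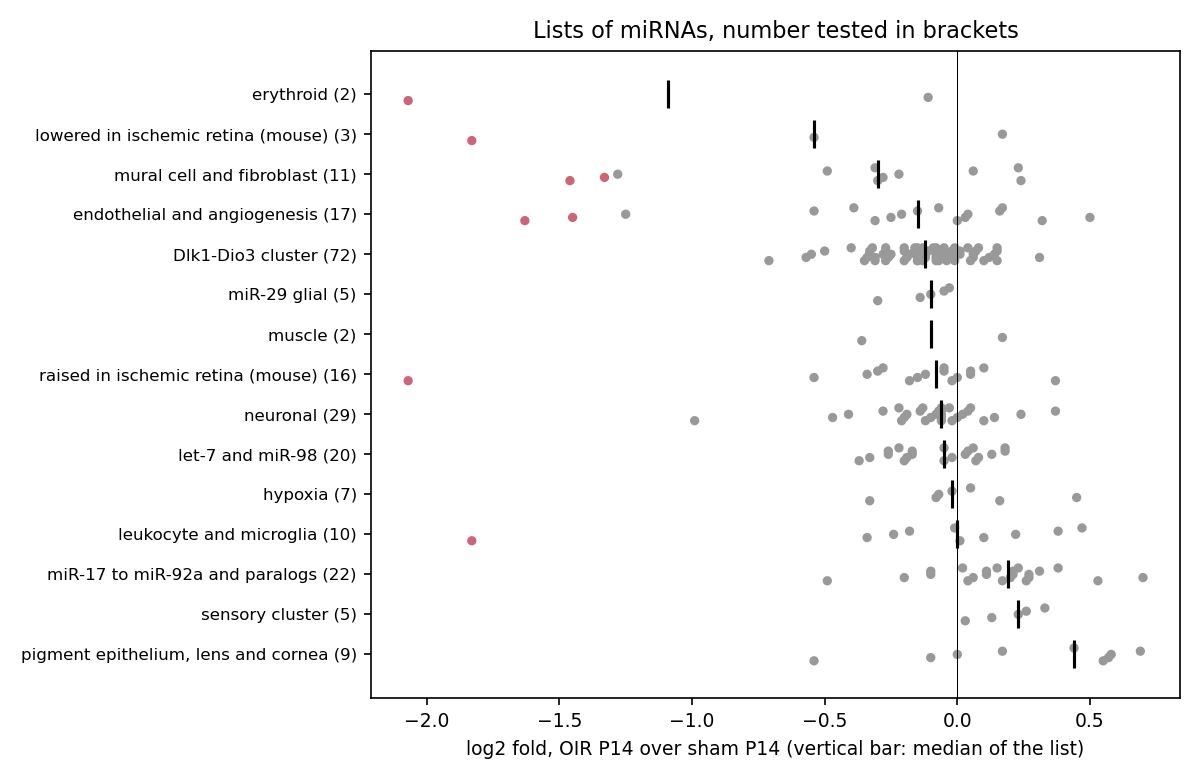
Log2 fold of OIR P14 over sham P14 for the tested members of 15 lists, 1 point each, red where called lower, with a vertical bar at each list's median and the number tested in brackets. Red points occur in the erythroid, ischemic retina, mural, endothelial and leukocyte lists, and grey points lie close to them for miR-145-5p in the mural and miR-10b-5p in the endothelial list.

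Neighbours in the genome were grouped where RefSeq hairpins lay within 10 kb on one strand. Mir145 to Mir143 on chromosome 18 had 3 of 3 tested arms negative, with a median of -1.33 and a range of -1.46 to -1.28. Mir450a1 to Mir322 on chromosome X had 7 of 7 arms negative under each of the 4 scalings tried, with a median of -0.32, or -0.50 by library totals. Its members miR-322-5p and miR-450a-5p were at unadjusted p under 0.05 and none was called. Mir222 to Mir221 had 3 of 3 negative (median -0.25), and Mir497 to Mir195 2 of 2 (median -0.40), again with none called. Other clusters had all tested arms positive, among them Mir532 to Mir500 (7 of 7, median 0.17), Mir25 to Mir93 (4 of 4, 0.24) and Mir301b to Mir130b (3 of 3, 0.37). None of these was called, and by library totals 3, 1 and 1 of their arms were negative. The imprinted Dlk1-Dio3 region, a large maternal miRNA cluster active in neurons, had 57 of 72 members negative, against 227 of all 415, and a median of -0.12. None was called by edgeR or limma-voom, and 1, miR-134-5p, was called by DESeq2. At unadjusted p under 0.05, 6 of the 72 were lower, against 6.27% of all miRNAs tested. miR-134-5p, miR-409a-3p and miR-127-3p had its smallest p, and all 3 had intervals below 0. By library totals 71 of the 72 were negative, against 338 of all 415.

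Among 381 tested miRNAs with a sequence there were 309 seeds, 12 of them with 3 or more tested members. The let-7 seed, whose family marks differentiated cells, had 8 of 9 members negative with a median of -0.20, and only let-7d-5p was positive, at 0.07. By library totals all 9 were negative. Of all 415 miRNAs tested, 227 were negative by TMM and 338 by library totals. let-7c-5p had the smallest p in the family, at 1444, 1370.2 and 1905 CPM in sham and 1156, 1255 and 1187 CPM in OIR (log2 fold -0.37, -0.69 to -0.05, adjusted p = 0.399). The seed of miR-15 and miR-16 is shown by 4 of its members, because they did not move as one.
miR-322-5p: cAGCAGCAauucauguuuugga
miR-195-5p: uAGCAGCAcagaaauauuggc
miR-497-5p: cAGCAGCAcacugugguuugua
miR-16-5p: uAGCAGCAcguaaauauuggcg

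miR-322-5p, miR-195-5p and miR-497-5p had log2 folds of -0.54, -0.49 and -0.31, while miR-16-5p, at 2609 CPM or more in every P14 library, had one of 0.05 (-0.15 to 0.26). miR-15b-5p, with the same seed, had 0.08 (-0.24 to 0.40). None of the 5 was called. The members with the seed of miR-130 were 3 of 3 positive, with a median of 0.37, though by library totals 1 of the 3 was negative. Those with the seed of miR-148 and miR-152 were also 3 of 3 positive (median 0.21, with 1 negative by library totals). Those with the seed of the miR-29 3p arms were 3 of 3 negative (median -0.14). No other of the 12 seeds had all its members on one side of 0. miR-130b-3p stood at 83.6, 63.7 and 79.1 CPM in sham and 107, 97.1 and 83.6 CPM in OIR (0.37, 0.04 to 0.70, adjusted p = 0.407). Across miRNAs the fold was almost unrelated to sequence composition: Spearman's rho was 0.05 with GC content and 0.08 with length (381 miRNAs, which share the 6 libraries and are not independent).

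The 2 arms of a hairpin offer a measure that needs no scaling between libraries. Of 143 hairpins with both arms listed, 122 had a mean count of at least 10 on each arm, and limma on the log2 ratio of 5p to 3p counts called 0 of them (0%). At unadjusted p under 0.05 there were 4: miR-20b, miR-34b, miR-27b and miR-362. No hairpin was called with a minimum of 100 counts per arm or with a pseudocount of 5 in place of 0.5. The ratio change was bounded within 2-fold for 103 of the 122 hairpins. The smallest p belonged to miR-20b, of the miR-106a to miR-363 cluster, whose log2 ratio was 2.05 ± 0.32 in sham and 1.17 ± 0.16 in OIR (SD, n = 3 each). The difference was -0.87 (-1.34 to -0.41, adjusted p = 0.346 by limma). Both of its arms were scarce, with miR-20b-3p at 0.569 to 1.25 CPM in the P14 libraries. Of 120 hairpins with both arms tested, 39 had both arms negative, 38 both positive and 43 one of each. miR-126a was the only one with both arms called.

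The calls leaned on single libraries to different degrees. miR-150-5p was called with each of the 6 libraries left out, with log2 folds of -2.05 to -1.69. It was the only miRNA called without sham library 27 or without sham library 51; the other 6 then had adjusted p of 0.0622 to 0.231 and of 0.0517 to 0.0606 by edgeR. Their folds moved little, as for miR-126a-3p, which was -1.62 without library 27 and -1.63 without library 51. Without OIR library 38, the library nearest to sham for most called miRNAs, miR-126a-3p reached -1.92, miR-126a-5p -1.69 and miR-143-3p -1.79, and 5 of the 7 were called, with miR-451-5p (adjusted p = 0.0598) and miR-1224 (0.0648) lost and miR-145-5p and miR-10b-5p added. Without OIR library 11, the lowest for most, they were -1.44, -1.25 and -1.24 and 6 of the 7 were called.

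miR-145-3p was the least secure, called in 1 of the 6 sets, that without library 38. miR-1224 was called in 2, those without sham library 25 and without OIR library 11. Without sham library 25, the sham library in which miR-144-3p was scarce, miR-144-3p became testable and was called lower. Without OIR library 11, the OIR library in which miR-223-3p was lowest, miR-223-3p became testable and was called higher. Each passed the count filter only once the library that went against its difference was left out, so neither call stands as a result.

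**Figure D5:**
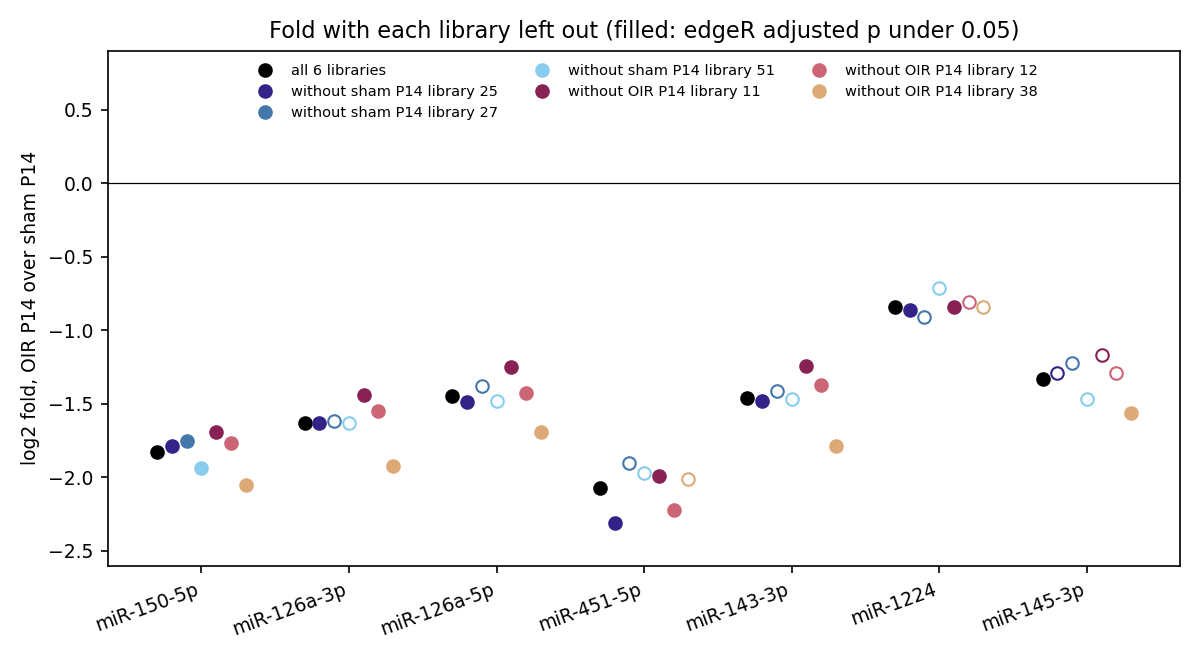
Log2 fold of OIR P14 over sham P14 for the 7 called miRNAs with all 6 libraries (black) and with each library left out in turn (other colours). A filled point has an edgeR adjusted p under 0.05 and an open one does not. All points lie below 0, and miR-150-5p is filled throughout.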

How the data were processed

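Small RNA of dissected retinas was read from one end, per the labels' protocols. The authors deposited raw read counts per mature miRNA, per the file headers, with their own folds and p-values, which were not used. limma is named in the submitters' processing notes. The sources used here do not give how reads were trimmed and aligned, or to which build. Columns carry library codes, and their groups follow from the tables in which the codes stand: the OIR P14 codes stand in both, with 1395 of 1395 counts identical.

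Counts were fitted with edgeR 4.0.16 in R 4.3.3 on 6 libraries: TMM, filterByExpr (minimum count 10, total 15), quasi-likelihood F test, adjusted p under 0.05. Standard errors are the log2 fold over the square root of F, and intervals are 95%. The biological coefficient of variation was 14.6%. limma 3.58.1 tested arm ratios (pseudocount 0.5). Alternatives were DESeq2 1.42.0, limma-voom, other scalings and filters, all 9 libraries together, robust dispersion and leaving out each library. The steps were tested on simulated data. Named miRNAs are those called, the 10 next in each direction with groups that do not overlap, their other arms, the 8 most abundant and a set linked to hypoxia, inflammation and cell types. The members and lists were chosen with earlier results of these data known. Mature sequences come from RefSeq, GRCr8. Identical counts stood under let-7c-2-3p and let-7a-1-3p in 6 of 6 libraries, under 3 miR-3084 names, and under miR-129-2-3p and miR-129-1-3p in 5 of 6. These are uncertain, and both names of the let-7 and of the miR-129 pair count as separate members of their lists.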

Additional observations from a re-analysis of the deposited data

How the results depend on the processing

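The count of 7 called miRNAs was 7 with DESeq2 size factors, without the 3 most abundant miRNAs, with no filter, by limma-voom and with robust dispersion, 9 by library totals alone and in a fit of all 9 libraries, and 5 with a mean count of at least 100, which removed miR-451-5p and miR-145-3p. DESeq2, with 464 miRNAs tested, called 12, adding miR-145-5p, miR-134-5p, miR-1298, miR-375-3p and miR-1247-5p. Leaving out each library gave 1 to 7. miR-1224 was lost in the fit of 9 libraries (adjusted p = 0.0768). The 7 kept their direction under every alternative run. The count of intervals within 2-fold was 367, against 346 by library totals and 362 with no filter. With each library left out, the arm ratio count stayed at 0, the difference in miR-182 share ran from 2.31 to 3.81 points and that in miRNAs making 90% of counts from -2.67 to -1.67.

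By library totals 338 of the 415 miRNAs were negative, against 227 by TMM. Among the miRNAs named by rule, the sign reversed for the following, none of them called. By library totals the log2 fold was -0.11 for miR-151-3p, -0.03 for miR-409a-5p, -0.06 for miR-134-3p, -0.06 for miR-183-5p, -0.02 for miR-26a-5p, -0.15 for miR-9a-5p, -0.07 for miR-191a-5p and -0.08 for miR-21-3p. By DESeq2 and by its size factors it was 0.01 for miR-21-5p. With each library left out in turn, it ran from -0.05 to 0.11 for miR-9a-5p, -0.09 to 0.07 for miR-132-3p, -0.08 to 0.34 for miR-134-3p, -0.40 to 0.01 for miR-34b-3p, -0.28 to 0.05 for miR-322-3p, -0.94 to 0.93 for miR-184, -0.03 to 0.18 for miR-151-3p, -0.73 to 0.02 for miR-155-5p, -0.04 to 0.01 for miR-21-5p, -0.11 to 0.80 for miR-210-5p and -0.15 to 0.36 for miR-409a-5p. The cause was not tested. No paired analysis was possible because the count columns carry library codes and no replicate numbers.

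Depth limits the scarce miRNAs: 50 of the 465 names were not tested, with mean counts up to 25.2. Of these, 6 had all OIR values under the sham values, a share near the 11.3% among those tested, and 0 had them above.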

Other observations

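For the 6 called miRNAs known from vessels and blood, the highest OIR P14 library stood at 28.5% to 50.0% of the sham mean and the lowest at 20.7% to 29.7%. The count of miR-150-5p over that of miR-126a-3p lay between 0.137 and 0.176 in the sham libraries and between 0.133 and 0.154 in the OIR libraries of P14. At P29 it lay between 0.290 and 0.369.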
